A study of Mus musculus with 2 samples.

Results

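The genes described here encode the sodium and potassium transport machinery of the distal nephron. They are 9 of the 32285 genes counted in the series, chosen by symbol and not by their values: Slc12a1, Slc12a3, Scnn1a, Scnn1b, Scnn1g, Kcnj1, Kcnj10, Wnk4 and Stk39. The study removed the 3 oxygen-sensing prolyl hydroxylases (PHD1, PHD2 and PHD3) from endothelial cells after kidney ischemia and measured single-cell RNA in the injured kidney. A Cre- mouse and a mouse labelled PHDTiEC (Cdh5-CreERT2 with Phd1f/f, Phd2f/f and Phd3f/f), littermates of 8 to 10 weeks, underwent 25 minutes of clamping of 1 renal artery, received 4 injections of 3 mg tamoxifen starting after the ischemia, and gave 1 postischemic kidney each on day 14. The recombinase is driven by the Cdh5 promoter, which is active in endothelium, so the tubular cells described below were not its target. Both mice had ischemia and tamoxifen, no uninjured kidney was in the series, and the labels did not give the floxed alleles of the Cre- mouse. With 1 library per genotype, the genotype, the mouse, the dissociation and the library cannot be told apart, and the differences below have no replicates behind them. Fewer cells of a subtype and less RNA per cell cannot be told apart in a sum over a class of cells.

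Salt leaves the urine in sequence along the distal nephron. Slc12a1 (the furosemide-sensitive cotransporter NKCC2) takes up sodium, potassium and chloride in the thick ascending limb (TAL), Slc12a3 (the thiazide-sensitive cotransporter NCC) takes up sodium and chloride in the distal convoluted tubule (DCT), and the epithelial sodium channel, built from the subunits of Scnn1a, Scnn1b and Scnn1g, works in the connecting tubule (CNT) and in the principal cells (PC) of the collecting duct. Kcnj1 (ROMK) lets potassium out across the apical membrane and Kcnj10 (Kir4.1) carries potassium across the basolateral membrane. Wnk4 activates the kinase of Stk39 (SPAK), which phosphorylates both cotransporters.

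The libraries held 136004367 UMIs (unique molecular identifiers, each standing for 1 captured transcript) in Cre- and 146758812 in the library labelled PHDTiEC, and 8548 and 9309 barcodes were kept, with medians of 7500 and 7898 UMIs. The kept sets shared 28 barcode sequences. In endothelial-like cells Egln1 (PHD2) stood at 67.7 and 188 CPM (UMIs of a gene scaled to the total UMIs of its class), Egln2 (PHD1) at 44.9 and 41.0 CPM and Egln3 (PHD3) at 22.3 and 146 CPM in Cre- and PHDTiEC. No floxed gene was therefore clearly lower there, and such counts do not tell a transcript with a deleted exon from an intact one, so the label was not checked by them. Clusters were named by marker genes with all 9 genes left out of the clustering. TAL-like cells (291 and 276) carried Umod at 12365 and 10287 CPM, and DCT-like cells (237 and 269) carried Tmem52b at 1490 and 1834 CPM while the DCT marker Pvalb was near 0 (1.02 and 5.32 CPM). CNT-like cells numbered 165 and 236, PC-like cells 65 and 22, intercalated (IC)-like cells 189 and 111, and IC-like cells that also carried CNT genes 153 and 234. The last were the deepest, with medians of 53439 and 53438 UMIs, and 0.654% and 3.42% of them were over the doublet score limit used as an alternative. Median mitochondrial shares were lower in the PHDTiEC library in all 6 of these classes (for example 7.97% and 5.64% in TAL-like cells, and 11.8% and 6.79% in CNT-like cells), and the part of this difference in the results below was not tested.

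The sequence just before 4 genes of sodium uptake is shown: the cotransporters Slc12a1 and Slc12a3, and Scnn1g and Scnn1b, which encode subunits of 1 channel. Of these, the cotransporters were the most sharply placed by segment in the levels below. Scnn1g and Scnn1b lie on the same strand of chromosome 7 (GRCm38 121734479 to 121768475 and 121865038 to 121918514), and their levels followed each other across the classes. Slc12a1 lies on chromosome 2 (125152505 to 125230002) and Slc12a3 on chromosome 8 (94329201 to 94366214), both on the plus strand. The stretches come from the RefSeq promoter table (build GRCm38.p6), which held 8 of the 9 genes (not Scnn1a), and each ends at the base before the GENCODE gene start, 5′ to 3′.
Slc12a1, chr2:125152350-125152504, plus strand: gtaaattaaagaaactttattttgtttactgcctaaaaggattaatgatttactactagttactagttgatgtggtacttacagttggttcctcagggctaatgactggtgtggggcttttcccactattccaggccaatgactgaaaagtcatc
Slc12a3, chr8:94328958-94329200, plus strand: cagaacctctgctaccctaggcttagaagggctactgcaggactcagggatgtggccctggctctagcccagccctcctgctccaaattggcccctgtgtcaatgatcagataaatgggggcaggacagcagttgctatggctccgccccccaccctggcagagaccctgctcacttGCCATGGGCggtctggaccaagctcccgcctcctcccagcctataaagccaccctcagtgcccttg
Scnn1g, chr7:121734229-121734478, plus strand: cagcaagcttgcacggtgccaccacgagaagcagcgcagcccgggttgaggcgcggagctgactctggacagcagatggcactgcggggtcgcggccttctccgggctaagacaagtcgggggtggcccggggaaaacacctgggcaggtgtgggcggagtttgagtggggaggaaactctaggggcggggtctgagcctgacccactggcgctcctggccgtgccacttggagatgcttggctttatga
Scnn1b, chr7:121864788-121865037, plus strand: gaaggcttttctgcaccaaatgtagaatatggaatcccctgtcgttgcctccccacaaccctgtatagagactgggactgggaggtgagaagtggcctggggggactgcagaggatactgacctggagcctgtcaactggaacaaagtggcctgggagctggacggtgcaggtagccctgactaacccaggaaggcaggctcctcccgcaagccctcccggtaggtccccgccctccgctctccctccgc
Capitals mark a match on either strand to the AP-2 element GCCNNNGGC, 1 of 3 motifs searched in the 250 bases before the RefSeq start. This motif was found before Slc12a3, Kcnj10, Stk39 and Wnk4 (4 of 8 windows) and in 13.7% of all 32851 promoters of that length. The site AAGGTCA of estrogen-related receptors was in none of the 8 windows (4.08% of all promoters), and the hypoxia response core ACGTG or GCGTG was before Slc12a1, Kcnj1, Wnk4 and Stk39 (38.6% of all promoters). The match before Slc12a1 fell inside the GENCODE gene and is not printed. The letters overlapped no other match in the printed stretches. They describe the sequence and do not show that a factor binds there.

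**Figure D1:**
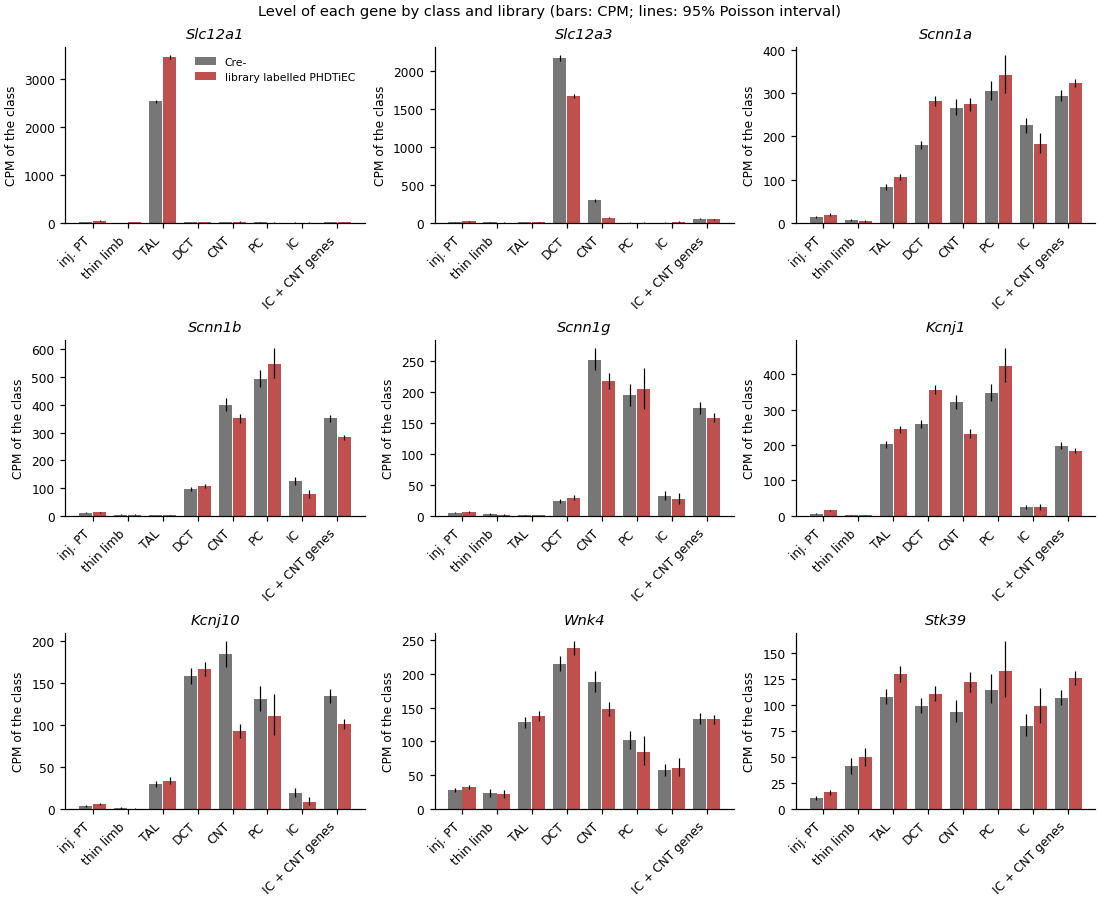
CPM of each gene (y axis, linear, from 0) in 8 tubular classes (x axis) of the Cre- library (grey) and the library labelled PHDTiEC (red), with 95% Poisson intervals that cover counting error only. Slc12a1 stood at 2537 and 3464 CPM in TAL-like cells and at 44.8 CPM or less in the other classes drawn, and Slc12a3 peaked in DCT-like cells, while the other 7 genes were spread over several classes.

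The cotransporters were the most sharply placed of the 9 genes. Slc12a1 gave 19431 UMIs in Cre- and 29895 in PHDTiEC TAL-like cells, that is 2537 CPM (95% Poisson interval 2501 to 2573) and 3464 CPM (3425 to 3504). Of all Slc12a1 UMIs, 76.3% and 80.9% lay in TAL-like cells. The level was thus higher in the PHDTiEC library, by 0.45 on the log2 scale (95% counting interval 0.42 to 0.48), where the median gene of the class was higher by 0.12. Most TAL-like cells came from a deep subcluster (5) in PHDTiEC (169 cells, against 118 in Cre-) and from a shallow subcluster (6) in Cre- (173 cells, against 107). Within subcluster 5 Slc12a1 stood at 2864 and 3464 CPM (log2 ratio 0.27), and within subcluster 6 at 2103 and 3462 CPM (log2 ratio 0.72). The direction was the same in both subclusters and the size was not.

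Slc12a3 went the other way in its own segment. DCT-like cells held 14879 and 14114 of its UMIs, which is 2173 and 1669 CPM in Cre- and PHDTiEC, a log2 ratio of -0.38 (-0.41 to -0.35) against a median of 0.12 over all genes of the class. The deep subcluster 9 (69 and 168 cells) gave 2052 and 1527 CPM and a log2 ratio of -0.43, while the shallow subcluster 7 (168 and 101 cells) gave 2282 and 2176 CPM and a log2 ratio of -0.07. The level was thus lower within subcluster 9 and nearly alike within subcluster 7, and the share of each subcluster in the class differed between the libraries, which enters the class value too. With a mitochondrial limit of 20% the ratio was -0.19, and with classes set from marker UMIs alone it was -0.13. After each cell was thinned to 5000 UMIs, 90.7% and 92.6% of DCT-like cells had a Slc12a3 UMI (93.7% and 98.1% unthinned), with medians of 8 and 6 UMIs per cell, beside 2.00% and 1.06% of macrophage-like cells, which should lack it. The share of cells was thus like in the libraries, and the UMIs per cell were not.

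**Figure D2:**
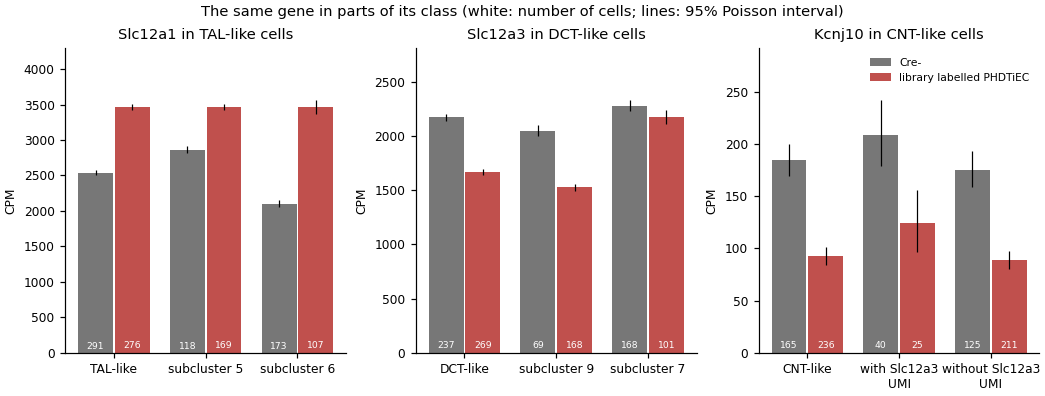
CPM (y axis, linear, from 0) of Slc12a1 in TAL-like cells, Slc12a3 in DCT-like cells and Kcnj10 in CNT-like cells, for the whole class and for its parts (x axis), by library, with 95% Poisson intervals and the number of cells in white. The Slc12a1 bars of PHDTiEC stand at 3462 to 3464 CPM in every part, those of Cre- between 2103 and 2864 CPM.

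Slc12a3 also reached the neighbouring CNT-like cells, and its log2 ratio there was further from 0 than in DCT-like cells. Its UMIs numbered 913 in Cre- and 339 in PHDTiEC, with 295 and 68.0 CPM (log2 ratio -2.12, -2.30 to -1.93). A UMI was seen in 24.2% and 10.6% of the cells, and in 20.0% (14.0% to 27.2%) and 6.39% (3.54% to 10.5%) after thinning. Over the alternatives tried the ratio lay between -2.74 and -0.86. Markers of the class moved with it: Calb1, a calcium-binding protein, stood at 1653 and 389 CPM, Slc8a1, a sodium-calcium exchanger, at 1892 and 620 CPM and S100g, another calcium-binding protein, at 14464 and 7193 CPM, while Trpv5, a calcium channel, stood at 322 and 344 CPM and the serine protease Klk1 at 5405 and 5059 CPM. The CNT-like class thus did not hold the same mixture of cells or transcripts in both libraries, and its part in the ratios of this class was not tested.

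Few cells carried both cotransporters. After thinning, a UMI of each was seen in 3.68% and 1.52% of TAL-like cells and in 3.10% and 3.88% of DCT-like cells, beside 3.20% (Slc12a1) and 2.00% (Slc12a3) of Cre- and 2.18% and 1.06% of PHDTiEC macrophage-like cells with a UMI of either gene alone. Low counts outside the own segment were uneven. In DCT-like cells Slc12a1 had 74 and 191 UMIs (log2 ratio 1.06), of which 1 cell gave 33.8% and 24.6%. In CNT-like cells it had 29 and 131 UMIs (log2 ratio 1.49), of which 1 cell gave 41.4% and 55.7%. Slc12a3 in TAL-like cells had 87 and 37 UMIs (log2 ratio -1.41), of which 1 cell gave 19.5% and 37.8%. Values so dependent on single cells are given as counts of these libraries only.

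The sodium channel subunits shared a distal pattern but not the same reach. Scnn1b was highest in PC-like cells, at 495 CPM (466 to 524) and 548 CPM (496 to 604), followed by CNT-like cells at 401 and 352 CPM. In the IC-like cells with CNT genes Scnn1b stood at 352 and 283 CPM and Scnn1g at 174 and 158 CPM. That class held 31.1% and 38.3% of all Scnn1b UMIs and 32.7% and 42.3% of all Scnn1g UMIs. Scnn1g was highest in CNT-like cells at 253 and 218 CPM, followed by PC-like cells at 195 and 205 CPM, and in PHDTiEC the intervals of these classes overlapped. Both were close to 0 in TAL-like cells, with 19 and 11 UMIs of Scnn1b and 3 and 8 UMIs of Scnn1g.

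Scnn1a, which encodes the alpha subunit, reached further upstream. It stood at 305 and 342 CPM in PC-like, 267 and 274 CPM in CNT-like, 180 and 282 CPM in DCT-like and 82.1 and 105 CPM in TAL-like cells. In the IC-like cells with CNT genes Scnn1a stood at 294 and 323 CPM. After thinning, 28.7% and 39.8% of TAL-like cells and 27.0% and 38.8% of DCT-like cells had a Scnn1a UMI but none of Scnn1b or Scnn1g, against 5.16% and 4.57% of CNT-like cells. In IC-like cells this share was 39.3% and 35.7%, so it was not particular to the upstream classes. In macrophage-like cells 1.43% and 0.871% had a Scnn1a UMI at that depth. All 3 subunits were seen together in 41.9% and 38.8% of CNT-like cells and in 34.9% and 77.3% of PC-like cells, the last from 17 of 22 cells.

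Between the libraries, Scnn1a was the subunit that differed most in DCT-like cells as a whole, with a log2 ratio of 0.65 (0.55 to 0.75) from 1230 and 2387 UMIs. Within subclusters 7 and 9 the ratio was 0.27 (0.06 to 0.48) and 0.48 (0.36 to 0.61), both below the class value. In all DCT-like cells Scnn1b stood at 96.8 and 106 CPM and Scnn1g at 23.7 and 29.2 CPM, with ratios of 0.13 (-0.01 to 0.28) and 0.30 (0.01 to 0.60). The ratio of Scnn1g was 0.31 in subcluster 7, not below that of Scnn1a there, and 0.17 in subcluster 9. In PC-like cells the ratios of Scnn1a, Scnn1b and Scnn1g were 0.17, 0.15 and 0.07, and each interval included 0. Those values rest on 22 PHDTiEC cells: with subcluster 11, which was led by Sprr2f and had the PC markers highest among the unnamed subclusters but not among its leading genes, they were -0.32, -0.53 and -0.74. In IC-like cells Scnn1a stood at 225 and 183 CPM (log2 ratio -0.30) and Scnn1b at 125 and 76.7 CPM (log2 ratio -0.70, -1.03 to -0.39).

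**Figure D3:**
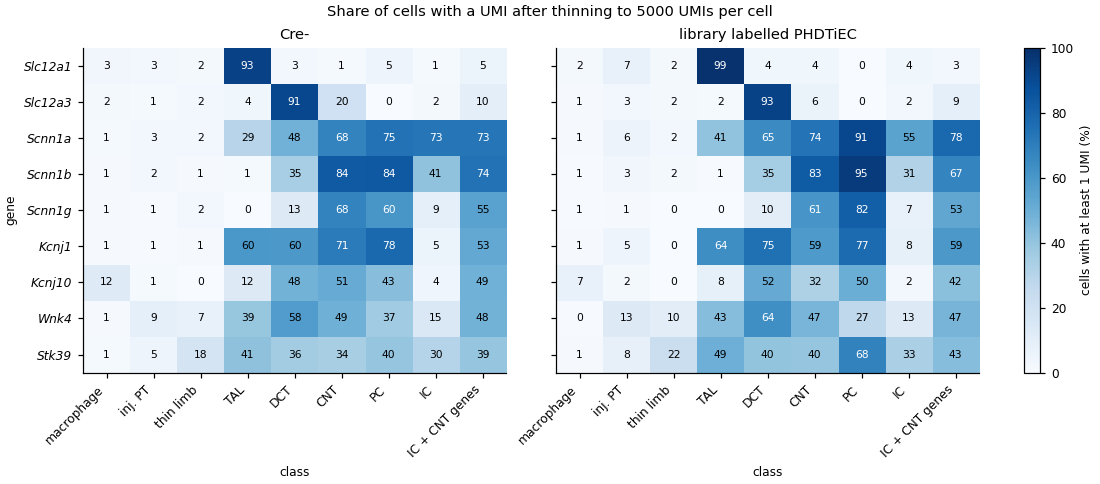
Percent of cells with at least 1 UMI of each gene (rows) in macrophage-like cells and 8 tubular classes (columns), after thinning to 5000 UMIs per cell, for Cre- (left) and the library labelled PHDTiEC (right). Scnn1a extends into TAL-like cells (29.4% and 40.5%), where Scnn1b and Scnn1g do not, and Kcnj10 is the only gene drawn with over 5% of macrophage-like cells.

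The potassium channels were found in several distal classes and were low in IC-like cells. Kcnj1 stood at 202 and 244 CPM in TAL-like, 260 and 356 CPM in DCT-like, 322 and 232 CPM in CNT-like and 347 and 424 CPM in PC-like cells. It was at 24.2 and 24.6 CPM in IC-like cells but at 198 and 184 CPM in the IC-like cells with CNT genes. Its log2 ratio was 0.28 (0.18 to 0.37) in TAL-like and 0.46 (0.37 to 0.54) in DCT-like cells but -0.47 (-0.60 to -0.35) in CNT-like cells. As with Slc12a1, the TAL value was made of unlike parts, with 0.12 in subcluster 5 and 0.61 in subcluster 6. The DCT value was above those of both its subclusters, 0.40 (0.30 to 0.51) in subcluster 9 and 0.09 (-0.08 to 0.26) in subcluster 7, whose shares of the class differed between the libraries.

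Kcnj10 was lower in TAL-like cells (29.1 and 33.3 CPM) than in DCT-like cells (158 and 166 CPM) in both libraries. It stood at 131 and 110 CPM in PC-like and at 19.1 and 7.96 CPM in IC-like cells. The DCT-like level did not differ beyond counting error, with a log2 ratio of 0.07 (-0.04 to 0.19), and -0.04 with TMM scaling. In CNT-like cells Kcnj10 stood at 184 CPM (169 to 200) in Cre- and 92.6 CPM (84.4 to 101) in PHDTiEC, a log2 ratio of -0.99 (-1.17 to -0.81). The ratio was as large in the CNT-like cells without a Slc12a3 UMI (175 and 88.6 CPM, log2 ratio -0.98), an alternative chosen after the values had been seen, and it lay between -1.13 and -0.72 over the alternatives. After thinning, 51.0% (42.8% to 59.1%) and 32.4% (26.3% to 39.1%) of CNT-like cells had a Kcnj10 UMI, beside 12.5% and 7.45% of macrophage-like cells. Kcnj1 and Kcnj10 were seen together in 32.3% and 43.4% of DCT-like cells and in 38.7% and 21.9% of CNT-like cells.

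The kinases were spread over all distal classes. Wnk4 was highest in DCT-like cells, at 215 CPM (204 to 226) and 238 CPM (228 to 249), and stood at 128 and 137 CPM in TAL-like and 188 and 148 CPM in CNT-like cells. It was also present upstream, with 26.2 and 25.6 CPM in PT-like cells, which resemble proximal tubule. A Wnk4 UMI was seen in 36.4% and 35.4% of PT-like cells unthinned, and in 14.4% and 12.9% after thinning. Stk39 stood at 3.57 and 3.05 CPM in PT-like cells. Stk39 lay between 80.0 and 132 CPM in every distal class from TAL-like to IC-like cells of both libraries, and at 40.8 and 49.4 CPM in thin limb-like cells. Ordered by level, neighbouring classes among these 6 had overlapping Poisson intervals in both libraries, so the order of neighbours was not resolved. Some classes further apart in the order did not overlap. In Cre- the interval of IC-like cells (70.1 to 91.0 CPM) lay below that of DCT-like cells (91.7 to 107 CPM). In PHDTiEC that of TAL-like cells (122 to 137 CPM) lay above that of DCT-like cells (104 to 118 CPM). The highest and the lowest class of PHDTiEC, PC-like (107 to 161 CPM) and IC-like cells (82.6 to 116 CPM), overlapped.

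Neither kinase differed much between the libraries in the segments of the cotransporters. The log2 ratio of Wnk4 was 0.10 (-0.02 to 0.22) in TAL-like cells, where TMM scaling turned it to -0.01, and 0.15 (0.05 to 0.25) in DCT-like cells, and that of Stk39 was 0.27 (0.14 to 0.40) and 0.16 (0.01 to 0.30). The all-gene median of 0.12 lay inside 3 of these 4 intervals, and Stk39 in TAL-like cells was above it. In CNT-like cells Wnk4 was lower in PHDTiEC (log2 ratio -0.35, -0.51 to -0.19) and Stk39 was higher (0.38, 0.17 to 0.59). UMIs of both kinases were seen in 18.4% and 22.0% of TAL-like cells and in 24.3% and 25.6% of DCT-like cells after thinning.

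**Figure D4:**
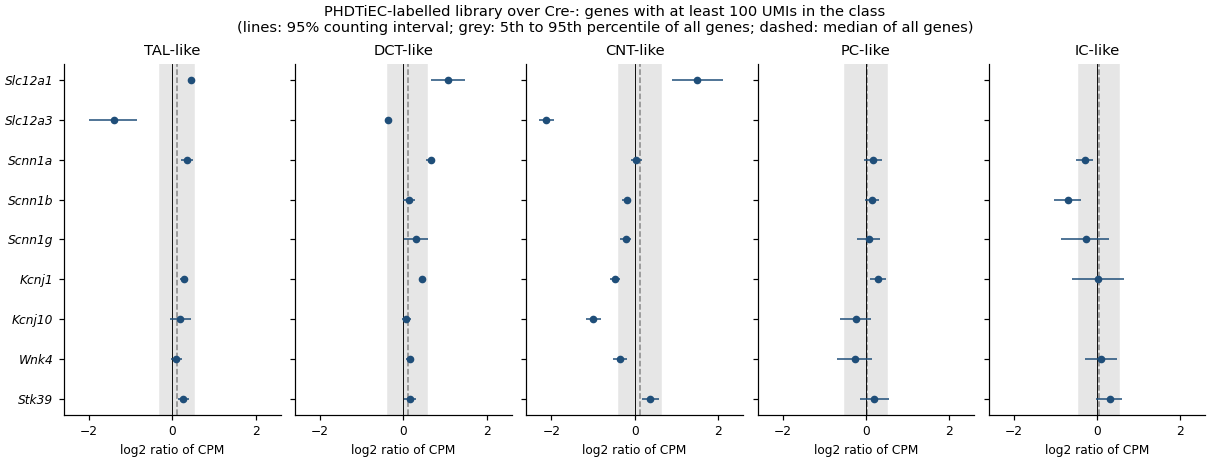
Log2 ratio of CPM, library labelled PHDTiEC over Cre- (x axis), for each gene with at least 100 UMIs (y axis) in 5 classes, with 95% counting intervals, the range from the 5th to the 95th percentile of all genes in grey and their median dashed. In CNT-like cells Slc12a3 (-2.12), Kcnj10 (-0.99) and Kcnj1 (-0.47) lie left of the grey range and Slc12a1 (1.49) right of it, in DCT-like cells Slc12a1 (1.06) and Scnn1a (0.65) lie right and Slc12a3 (-0.38) just left of it, and Slc12a3 in TAL-like (-1.41) and Scnn1b in IC-like cells (-0.70) lie left.

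The 9 genes were also counted beside all genes of each class. A gene was counted when it had at least 100 UMIs over both libraries, and as past the fold when its log2 ratio was 0.5 or more in either direction. In TAL-like cells 1 of 7 genes was past the fold (Slc12a3, lower), where 7.49% of all genes were (5.74% higher in PHDTiEC and 1.75% lower), and in DCT-like cells 2 of 9 (Slc12a1 and Scnn1a, higher), where 9.83% were (7.47% and 2.36%). In CNT-like cells 3 of 9 were past it (Slc12a1 higher, Slc12a3 and Kcnj10 lower), where 13.5% were (10.6% and 2.91%), and in IC-like cells 1 of 6 (Scnn1b, lower), where 8.77% were (5.47% and 3.30%). Slc12a3 in TAL-like cells and Slc12a1 in DCT- and CNT-like cells are the low counts given above, and Slc12a1 reached the minimum there only through the PHDTiEC library. Without genes of which 1 cell gave at least 20% of the UMIs in either library, a limit set after the values had been seen, the counts were 0 of 6 in TAL-like, 1 of 8 in DCT-like, 2 of 8 in CNT-like and 1 of 5 in IC-like cells. The shares of all genes were not recounted under this limit, so these counts have no like share beside them. None of 7 was past it in PC-like cells (10.3% of all genes, 4.97% higher and 5.30% lower), none of 9 in the IC-like cells with CNT genes (5.34%), none of 2 in thin limb-like cells (5.41%) and none of 2 in PT-like cells (6.86%). The median log2 ratio of the set was 0.27 in TAL-like, 0.16 in DCT-like, -0.22 in CNT-like and 0.15 in PC-like cells, and that of all genes was 0.12, 0.12, 0.14 and 0.03.

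In injured PT-like cells, which carry Havcr1 and Vcam1, 6 of 9 genes were past the fold and higher in PHDTiEC. Of all genes, 6.78% were past it (4.30% higher and 2.48% lower). Of the 6, Slc12a3, Kcnj1 and Kcnj10 had under 100 UMIs in Cre-, so they reached the minimum only with the PHDTiEC library, where they were higher. Without the genes of which 1 cell gave at least 20% of the UMIs the count was 4 of 7, which still holds Kcnj1 and Kcnj10. The share of all genes was not recounted under that limit. The levels were low: Slc12a1 stood at 9.81 and 44.8 CPM (log2 ratio 2.19, 1.90 to 2.49), Slc12a3 at 3.93 and 17.5 CPM (2.15) and Kcnj1 at 5.73 and 14.9 CPM (1.38). Few cells carried them, with a Slc12a1 UMI in 9.13% and 13.4% of cells, and 1 cell gave 34.2% and 20.2% of its UMIs. Barcodes over the doublet score limit made up 12.4% and 16.9% of the class. Without them the level of Slc12a1 was 3.54 and 9.08 CPM (log2 ratio 1.36), near the 6.10 and 5.01 CPM of macrophage-like cells, and Scnn1a changed sign to -0.50 (-1.48 to 0.44). Wnk4 was the gene most widely seen there, in 42.4% and 43.7% of cells at 27.3 and 31.6 CPM. After thinning it was seen in 9.2% and 13.1% of cells.

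Outside the tubule, Kcnj10 was seen in macrophage-like cells. It had 499 and 314 UMIs there, 24.5 and 13.1 CPM (log2 ratio -0.90, -1.11 to -0.70), in 16.4% and 10.7% of cells. The other 8 genes were seen in at most 5.04% of these cells in either library. Of the 3 macrophage-like clusters, cluster 0 gave 33.8 and 23.6 CPM, cluster 1 gave 25.8 and 8.96 CPM and cluster 12 gave 8.01 and 2.67 CPM, lower in PHDTiEC in each. Macrophage-like cells held 10.3% and 7.01% of all Kcnj10 UMIs, against 22.4% and 31.4% in DCT-like cells. Cotransporter UMIs also lay outside the tubule. Endothelial-like cells held 3.72% and 1.55% of all Slc12a1 UMIs and 1.01% and 0.662% of all Slc12a3 UMIs. Of the endothelial-like cells 18.5% and 14.7% were over the doublet score limit, and the source of these UMIs was not tested.

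**Figure D5:**
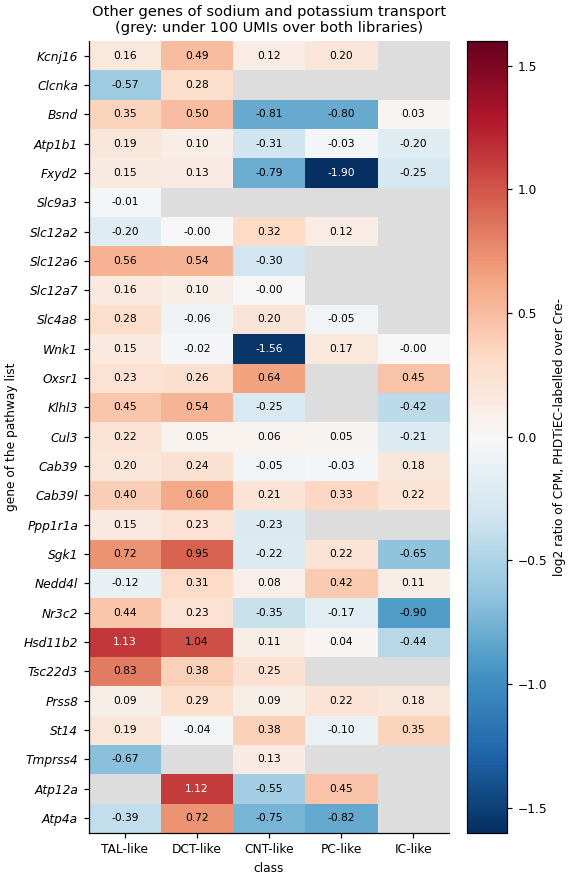
Log2 ratio of CPM, library labelled PHDTiEC over Cre-, for 27 further transport genes (rows) in 5 classes (columns). Blue is lower and red higher in PHDTiEC, and grey marks under 100 UMIs. Hsd11b2 is higher in TAL-like (1.13) and DCT-like (1.04) cells, and Wnk1 (-1.56) and Fxyd2 (-0.79) are lower in CNT-like cells.

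The other genes of the pathway, a list of 31, were counted in the same way. In TAL-like cells 28 had 100 UMIs, of which 4 were past the fold and higher in PHDTiEC and 2 lower (5.74% and 1.75% of all genes). In DCT-like cells 7 of 27 were higher and none was lower (7.47% and 2.36% of all genes). In CNT-like cells 1 of 27 was higher and 6 were lower (10.6% and 2.91% of all genes). In PC-like cells 4 of 20 were lower (5.3% of all genes), in IC-like cells 2 of 17 (3.3%), and none was higher in either (4.97% and 5.47%). In injured PT-like cells 5 of 24 were higher and none was lower (4.3% and 2.48% of all genes). In PT-like cells 1 of 19 was higher and 1 lower (6.86% of all genes past the fold in either direction). In thin limb-like cells 1 of 17 was higher (5.41%), and in the IC-like cells with CNT genes 2 of 28 were lower (5.34%). Among all genes, those past the fold were more often higher than lower in PHDTiEC in TAL-, DCT-, CNT-, IC- and injured PT-like cells, by the shares given above, so a count of higher genes is to be read beside the share of higher genes.

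Hsd11b2, the enzyme that inactivates glucocorticoids and so keeps the mineralocorticoid receptor for aldosterone, stood at 45.7 and 100 CPM in TAL-like cells (log2 ratio 1.13, 0.95 to 1.32) and at 601 and 1231 CPM in DCT-like cells (1.04, 0.98 to 1.09). In the classes where it was most abundant it stood at 2714 and 2931 CPM (CNT-like, 0.11) and at 3455 and 3543 CPM (PC-like, 0.04). Sgk1, the aldosterone-induced kinase, was low in TAL-like (10.6 and 17.4 CPM) and DCT-like cells (39 and 93 UMIs), with ratios of 0.72 and 0.95, and stood at 134 and 85.4 CPM in IC-like cells (-0.65). Tsc22d3, another steroid-induced gene, was at 26.5 and 47.2 CPM in TAL-like cells (0.83), and its ratio in DCT-like cells was 0.38. Nr3c2, the mineralocorticoid receptor itself, stood at 26.3 and 30.9 CPM in DCT-like cells, and its ratios in TAL- and DCT-like cells (0.44 and 0.23) were not past the fold.

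Among the channels and pump regulators that work beside the 9 genes, Kcnj16, the partner of Kcnj10, stood at 241 and 338 CPM in DCT-like cells (log2 ratio 0.49, 0.40 to 0.58) and at 243 and 264 CPM in CNT-like cells (0.12), where Kcnj10 was lower. Bsnd, an accessory subunit of chloride channels, was at 47.6 and 67.2 CPM (0.50) and at 53.2 and 30.5 CPM (-0.81) in the same classes. Fxyd2, a regulator of the sodium pump, was at 2778 and 1603 CPM in CNT-like cells (-0.79). Klhl3, the adaptor that sends WNK kinases to degradation, was at 114 and 165 CPM in DCT-like cells (0.54, 0.41 to 0.67). Its partner Cul3 was at 117 and 121 CPM there (0.05). The DCT-like ratios of Kcnj16, Bsnd, Klhl3 and Cul3 lay inside the 5th to 95th percentile range of all genes there (-0.36 to 0.57). They were not split by subcluster.

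Wnk1 had the lowest ratio of the list in CNT-like cells, with 569 and 193 CPM (log2 ratio -1.56, -1.68 to -1.45). Its level in DCT-like cells was 689 and 678 CPM (-0.02). In the CNT-like cells with a Slc12a3 UMI (40 and 25 cells) it stood at 1284 and 743 CPM (-0.79), with 25.0% and 27.2% of its UMIs from 1 cell. In those without (125 and 211 cells) it stood at 304 and 121 CPM (-1.32). Reads here do not separate the long form of Wnk1 from the short kidney form.

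Across 18 points (9 tubular classes of 2 libraries), the genes whose log2(CPM + 10) followed each member most closely were named by rule, from genes with at least 500 UMIs. The points share their libraries, and classes of 1 library share its depth, so the correlations are descriptions. Slc12a1 was followed by Ak7, Cldn16 and Pla1a (Pearson r 0.97, 0.96 and 0.96), of which Cldn16 is a tight junction gene of the TAL and a marker used to name that class. For Slc12a3 they were Sall3, Trpm6 and AC160336.1 (0.95, 0.94 and 0.94), of which Trpm6 encodes the magnesium channel of the DCT and was a class marker too. Scnn1b went with Gata3, Rhcg and Phactr1 (each 0.98), Scnn1g with Cav1, Tmem45b and Stc1 (each 0.99) and Scnn1a with Blnk, Kcnq1 and Sgpp2 (each 0.99). Kcnj1 went with Nudt4, Vav3 and Ier5l (0.97, 0.96 and 0.96), Kcnj10 with Gm13652, Nudt4 and Hpcal4 (each 0.97), Wnk4 with Fgf9, Tmem52b and Samd5 (0.96, 0.96 and 0.95) and Stk39 with Mal, Rac3 and Krt7 (each 0.98). Of these, Gata3 (PC) and Tmem52b (DCT) were class markers too. Within the set, Scnn1b and Scnn1g were the closest (0.98), followed by Kcnj1 and Kcnj10 (0.95), and Slc12a1 went with none (at most 0.27).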

How the data were processed

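Single-cell RNA of the postischemic kidney of 1 Cre- mouse and 1 mouse labelled PHDTiEC was measured with the 10X Genomics 3′ kit. The authors aligned the reads to mm10 with Cell Ranger (version 4 in the file headers) and deposited UMI counts for every barcode of the kit, with no cell filter, free RNA correction or normalization. The deposited lists of barcodes and gene names hold no measured values.

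Barcodes with 500 to 100000 UMIs, at least 200 genes and at most 50% mitochondrial UMIs were kept (17857 in both libraries). In Seurat 5.3.0 under R 4.3.3, counts were normalized to 10000, and 20 principal components of 2000 variable genes were clustered at a resolution of 0.8, with the 9 genes and the pathway list left out of the variable genes. The nephron clusters past the proximal tubule were clustered again by themselves. Clusters were named from marker lists with the clusters in view, and those that no list led were left by number. CPM relate the summed UMIs of a gene in a class and library to all UMIs of that class. The log2 ratio is PHDTiEC over Cre-. Intervals are 95%: exact Poisson for a sum, and exact binomial (Clopper-Pearson) for shares of cells and for how a gene's UMIs divide between libraries. They cover counting error only, and with 1 library per genotype no test, p-value or standard error was computed. The ratio and its interval were tested on simulated data. To compare shares of cells, each cell was thinned to 5000 UMIs and shallower cells were left out (19 and 12 TAL-like, 11 and 11 DCT-like, 10 and 17 CNT-like, 2 and 0 PC-like and 495 and 428 macrophage-like cells).

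The members, the lists and the rules were chosen with earlier results of these data known. Genes are named if they are members, pathway genes, floxed genes in endothelial-like cells or class markers, or if they are the 3 nearest in pattern to a member. The doublet score of Scrublet (scanpy 1.11.5) marked 0 barcodes at its own threshold, so as an alternative the barcodes above the limit of the highest-scoring 8% were removed, which left in those tied at the limit and took out 637 and 716 barcodes (7.45% and 7.69%). Other alternatives were a mitochondrial limit of 20%, at least 1000 UMIs, a complexity limit, no upper UMI limit, resolutions of 0.4 and 1.2, 30 principal components, the 9 genes kept in the clustering, classes from marker UMIs, TMM scaling (edgeR 4.0.16), CPM that leave out mitochondrial and rRNA-associated genes, means over cells and subtraction of free RNA. Subclusters taken alone, PC-like cells with subcluster 11, CNT-like cells without a Slc12a3 UMI and counts without genes of which 1 cell gave at least 20% of the UMIs were added after the data had been seen. Some genes of the pathway list were counted but are not reported here by name. Gene coordinates are those of GENCODE vM21.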

Additional observations from a re-analysis of the deposited data

How the results depend on the processing

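The 11 ratios of a gene in a class named in the design were recomputed under 160 alternatives in all. The class named was not always the one where the gene was highest. Slc12a3 and Kcnj10 in CNT-like cells and Scnn1a in DCT-like cells, whose ratios were larger in size, are not among the 11. Of the 160, 127 stayed inside the counting interval of the reported value and 33 moved outside it, with the cause not tested. The sign was opposite in 13 of the 160, and in 4 of these the interval of the reported value had left out 0 (Kcnj1 in PC-like cells 2 times, and Wnk4 and Stk39 in DCT-like cells). Slc12a1 in TAL-like cells (0.45) stayed above 0 throughout: 0.52 with a mitochondrial limit of 20%, 0.41 with the complexity limit, 0.54 with no upper UMI limit, 0.49 at resolution 0.4, 0.55 with classes from marker UMIs, 0.40 without mitochondrial and ribosomal RNA-associated genes, 0.34 with TMM scaling, 0.40 as a mean over cells, and 0.27 and 0.72 in the deeper and the shallower subcluster alone. Slc12a3 in DCT-like cells (-0.38) stayed below 0: -0.19, -0.34, -0.13, -0.44, -0.49, -0.34, -0.43 and -0.068 under the same changes in that order, leaving out the upper limit and the resolution, and -0.33 with 30 principal components. Kcnj1 in TAL-like cells (0.28) was 0.17 with TMM scaling, 0.38 as a mean over cells, and 0.12 and 0.61 in the deeper and the shallower subcluster. Stk39 in TAL-like cells (0.27) was 0.11 as a mean over cells.

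Among these 11 the changes of sign were in PC-like and DCT-like cells. Kcnj1 in PC-like cells (0.29) was -0.39 with classes from marker UMIs and -0.64 with subcluster 11 added, which also moved Scnn1a to -0.32, Scnn1b to -0.53 and Scnn1g to -0.74. Scnn1b in PC-like cells was -0.17 with classes from marker UMIs. Wnk4 in DCT-like cells (0.15) was 0.039 with TMM scaling and -0.074 in the deeper subcluster, and Stk39 there (0.16) was -0.029 in the shallower one. Outside the 11, Scnn1g in DCT-like cells (0.30) was -0.030 with the complexity limit and -0.61 with classes from marker UMIs, and Scnn1a in IC-like cells (-0.30) was 0.10 with the latter. Kcnj10 in DCT-like cells stayed between -0.04 and 0.17. No PC-like cluster was recovered with at least 1000 UMIs, at resolution 0.4 or with 30 principal components, so these gave no value there.

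No paired analysis was possible because each genotype has 1 library. Levels rest on 1 mouse each, and PC-like cells of PHDTiEC number 22. The shares of subclusters within the TAL- and DCT-like classes differed between the libraries, as did several markers of the CNT-like class. A difference between the libraries can therefore not be assigned to the genotype. A gene listed at 0 in a class was not detected at a limit of 3 UMIs over the class total.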
